A study of Mus musculus with 19 samples.

Results

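The AP-1 and immediate early genes described here were 10 genes chosen by name: Fos, Fosb, Fosl1, Fosl2, Jun, Junb, Jund, Egr1, Egr3 and Atf3. Of the 10, 9 were listed in bulk among 13202 genes, and 8 of these passed the filter on low values that left 10803 genes for testing. Egr3 was listed and did not pass that filter, and Fosl1 was not analysed in bulk here. All 10 were measured in each of the 4 single-cell matrices.

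The bulk libraries came from Melan-a, an established mouse melanocyte line that grows without limit in culture. The cells were unedited (parental, genotype BAP1 WT) or carried a BAP1 knockout made by CRISPR (genotype BAP1 KO, clones 1 to 4). Each of the 5 lines had 2 cultures, called biological replicates in the labels, in 1 batch and without drug treatment, and each knockout line was a single clone. No edited line with intact BAP1 was among the groups, so BAP1 loss, editing, cloning and time in culture cannot be told apart. Nothing in the labels tells how long the 2 cultures of each line had been separate, so a p-value for 1 clone measures the spread between these cultures. The single-cell matrices came from dissociated whole tumours of Melan-a cells, BAP1 wild-type or knockout, grown in syngeneic mice under the skin or in the eye. They lie under 1 sample of the series, and genotype and site of a matrix come only from its name, so they are called the matrices labelled WT skin, KO skin, WT ocular and, for the knockout in the eye, KO ocular. For that 1 sample the labels' protocols name a fixed-tissue workflow.

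AP-1 is a family of dimeric transcription factors built from Jun proteins paired with each other, with Fos proteins or with related factors such as Atf3. Several of these genes, and the zinc-finger factors Egr1 and Egr3, are transcribed within minutes of a growth factor, stress or cytokine signal without new protein synthesis, which is why they are called immediate early genes. Growth factor signals reach them largely through the ERK kinase pathway, stress signals through JNK and p38, and the same genes are known to respond to enzymatic dissociation of tissue. BAP1 is a nuclear deubiquitinase that removes ubiquitin from histone H2A and is lost in many uveal melanomas.

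The 250 bases before the annotated start were read for the 7 of 10 members that matched the RefSeq promoter table (GRCm38.p6). They were searched on both strands for 4 motifs given by letters, TGANTCA (AP-1), TGACNTCA (CRE-like), TGACGT (the core of the cAMP response element, which also lies in 1 form of the CRE-like motif) and GCGNGGGCG (EGR), and for the CArG box, the binding motif of serum response factor. The 4 shown are those of Fosl2, Atf3 and Fos, which rose in 1 or more clones in the bulk comparisons, and of Jun, whose level in the single-cell classes ran apart from that of the other members. Capitals mark the 1 match in each, and each sequence runs 5′ to 3′ on the strand of the gene.
Fos, chr12:85473640-85473889, plus strand: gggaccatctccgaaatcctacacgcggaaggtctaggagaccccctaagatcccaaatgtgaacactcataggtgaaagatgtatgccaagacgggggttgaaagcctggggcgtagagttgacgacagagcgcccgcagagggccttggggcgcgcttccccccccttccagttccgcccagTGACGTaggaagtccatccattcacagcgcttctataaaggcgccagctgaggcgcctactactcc
Fosl2, chr5:32136222-32136471, plus strand: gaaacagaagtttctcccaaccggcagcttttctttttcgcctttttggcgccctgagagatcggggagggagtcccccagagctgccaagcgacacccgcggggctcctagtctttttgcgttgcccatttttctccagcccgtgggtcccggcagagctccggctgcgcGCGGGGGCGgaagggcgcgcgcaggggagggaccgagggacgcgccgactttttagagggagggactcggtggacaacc
Jun, chr4:95052223-95052472, minus strand: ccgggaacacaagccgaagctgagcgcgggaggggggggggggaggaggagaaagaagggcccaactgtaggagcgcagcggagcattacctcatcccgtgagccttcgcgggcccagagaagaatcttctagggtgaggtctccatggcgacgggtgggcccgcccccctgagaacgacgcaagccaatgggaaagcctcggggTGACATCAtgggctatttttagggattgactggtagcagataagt
Atf3, chr1:191183334-191183583, minus strand: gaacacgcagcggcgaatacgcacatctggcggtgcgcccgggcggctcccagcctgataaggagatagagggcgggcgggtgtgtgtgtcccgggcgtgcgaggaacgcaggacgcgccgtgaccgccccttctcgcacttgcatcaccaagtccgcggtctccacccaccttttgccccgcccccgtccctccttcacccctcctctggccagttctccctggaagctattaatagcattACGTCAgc
Fos held TGACGT from 66 to 61 bases before its start, and Atf3 held the reverse complement of the same letters, ACGTCA, from 8 to 3 bases before its start. Of 32851 promoters of the same length, 6.47% held this motif. Fosl2 held the EGR match GCGGGGGCG from 79 to 71 bases before its start, and Fosb held the same letters from 50 to 42 bases before its own, against 4.70% of all promoters with an EGR match. Jun held the CRE-like match TGACATCA from 45 to 38 bases before its start, a motif in 7.49% of promoters. Junb and Jund held none of the 5 motifs in this window, nor did any of the 7 hold the AP-1 motif (6.75% of all promoters) or the CArG box (1.47%). Jund also rose in the bulk comparisons, and its window is not shown. A match describes these letters and is not evidence of a bound site.

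The 10 bulk libraries held 30770592 to 46837289 reads in the listed genes. Bap1 checked the labels: it stood at 4450 and 4392 normalised reads in the unedited line's cultures and at 359 to 1193 in the 8 clone cultures. Pmel, a melanosome protein that defines pigment cells, was at 612888 normalised reads or more in every library. The spread between the cultures of 1 line differed among lines: the SD over genes of the log2-like difference between cultures was 0.08 in the parental line and 0.27, 0.24, 0.13 and 0.30 in clones 1 to 4. In the text, a normalised read is a read count divided by the library's size factor, and a difference is on the deposited variance-stabilised log2-like scale, which understates the change of low genes. Gene positions are on GRCm38.

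The question of the first comparison was how each knockout clone differed from the parental line. In clone 3, 5 of the 8 tested members rose (Fosl2, Egr1, Fos, Atf3 and Jund) where 39.8% of all tested genes were called (19.9% higher). In clone 4, 3 rose (Fosl2, Jund and Jun) and Fosb fell, where 36.5% of all genes were called (19.3% higher, 17.2% lower). In clone 2, 2 rose (Atf3 and Fosl2), where 26.1% were called (12% higher). In clone 1 no member passed the limma test, where 3.5% of all genes were called (1.15% higher, 2.35% lower), and 0 of the 8 had an unadjusted p under 0.05, with 0 called by edgeR or DESeq2 on the recovered reads. The median difference over the 8 tested members was 0.11, 0.17, 0.58 and 0.49 in clones 1 to 4, beside -0.016, 0.031, 0.013 and 0.036 over all genes tested. These are limma calls at a Benjamini-Hochberg adjusted p under 0.05 over all 10803 genes, from 2 cultures against 2 with 1 spread shared by the 5 lines, and the 4 comparisons share the parental cultures. The call counts rest on single cultures in places: without either parental culture only Fosl2 was called in clone 3 and only Jund in clone 4.

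**Figure D1:**
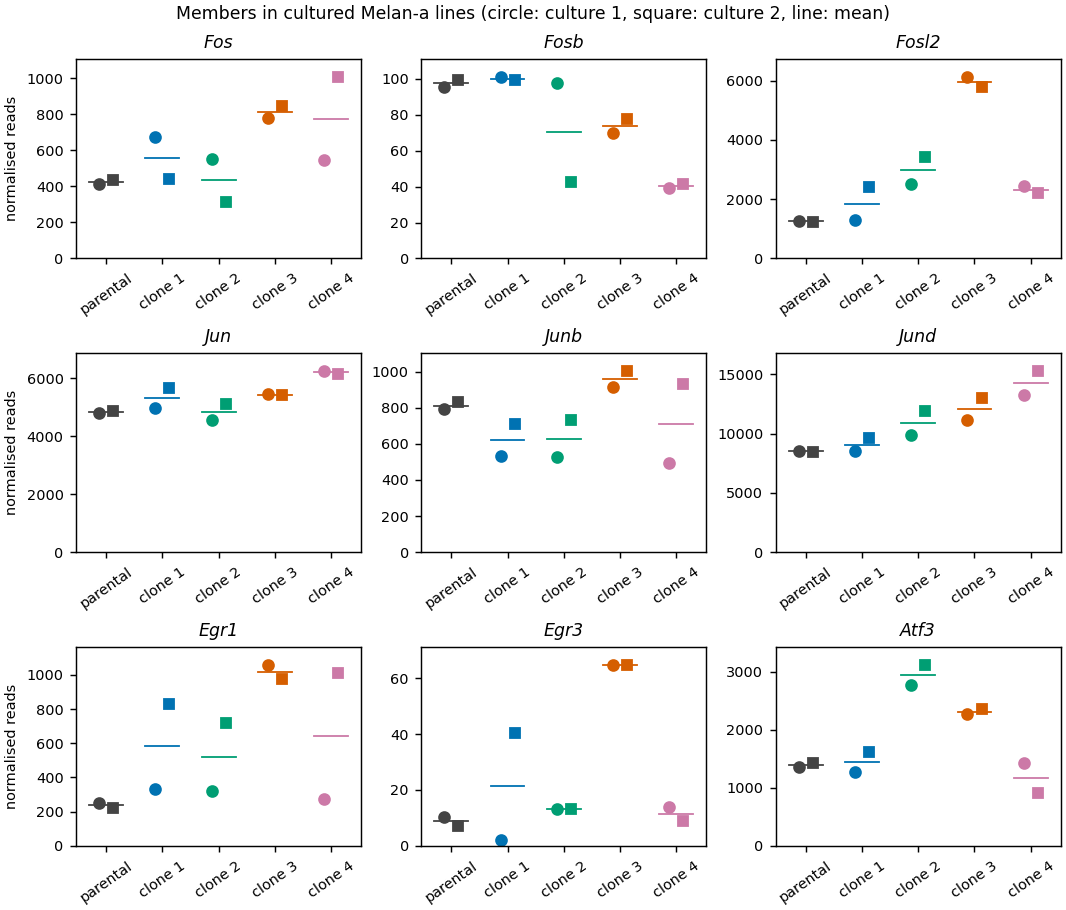
Normalised reads of the 9 listed members in each culture of the parental line and of clones 1 to 4, with 1 panel a gene, circles for culture 1, squares for culture 2 and a line at their mean. Fosl2 is highest in both cultures of clone 3 (6113 and 5779), while Egr1 in clone 4 runs from 275 in culture 1 to 1010.0 in culture 2.

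**Figure D2:**
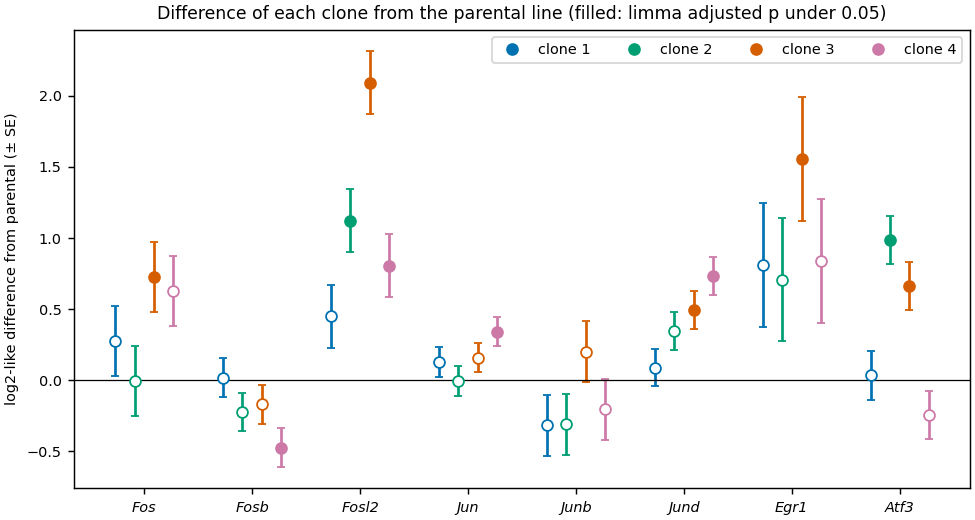
Difference of each clone from the parental line for the 8 tested members on the log2-like scale, with SE bars and filled points where the limma adjusted p was under 0.05. Fosl2 in clone 3 stands highest (2.09), and the filled points are those of clones 2, 3 and 4.

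Among the Fos family, Fosl2 moved most. Fosl2 (ENSMUSG00000029135, chr5:32136472-32157840) encodes Fra-2, a Fos protein that lacks the strong activation domain of Fos itself. It was at 1258 and 1239 normalised reads in the unedited line's cultures, at 1296 and 2407 for clone 1, 2511 and 3435 for clone 2, 6113 and 5779 for clone 3 and 2440.4 and 2208 for clone 4. All 8 clone cultures lay above both parental cultures, in clone 1 by little for culture 1, and those of clone 3 lay above all others. The difference was 2.09 in clone 3 (SE 0.22, adjusted p = 7.1e-05, limma), 1.12 in clone 2 (SE 0.22, adjusted p = 0.00459, limma) and 0.81 in clone 4 (SE 0.22, adjusted p = 0.0168, limma). In clone 1 it was 0.45 (SE 0.22), which did not pass, and it was 0.85 without culture 1 of that clone. The clone 4 call rested on single cultures: it was lost when either culture of that clone or either parental culture was left out. Chromosome 5 as a whole was also higher in clones 3 and 4, with a median over its 707 tested genes of 0.34 and 0.23 above the median of all genes, against 0.04 in clones 1 and 2. Its part in the Fosl2 difference was not tested.

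Fos (ENSMUSG00000021250, chr12:85473890-85477274), the founding immediate early gene of the family, was at 411 and 434 normalised reads in the unedited line's cultures. It was at 672 and 438 for clone 1, 552 and 313 for clone 2, 778 and 844 for clone 3, and 545 and 1005 for clone 4. Only clone 2 had a culture below the parental pair, and the cultures of clones 1, 2 and 4 lay farther apart than those of the parental line and clone 3. Fos rose in clone 3 by 0.73 (SE 0.25, adjusted p = 0.0377, limma), a call that edgeR on the recovered reads did not make (adjusted p = 0.0516). In clone 4 the difference was 0.63 (SE 0.25), which did not pass the limma test, though DESeq2 called it (0.84, adjusted p = 0.028). The chromosome 12 median was shifted by 0.23 in clone 4, -0.17 in clone 2 and -0.03 in clone 3.

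Fosb (ENSMUSG00000003545, chr7:19302696-19310118), a close relative of Fos, was the member that fell. It was at 95.3 and 99.5 normalised reads in the unedited line's cultures and at 101 and 99.1 for clone 1, so these 2 lines overlapped. It was at 97.4 and 42.8 for clone 2, 70.1 and 77.4 for clone 3, and 39.0 and 41.6 for clone 4, the lowest pair. Fosb fell in clone 4 by 0.47 (SE 0.14, adjusted p = 0.0207, limma), although after quantile normalisation the difference was -0.23 and did not pass (adjusted p = 0.196, limma). Chromosome 7 was lower by 0.22 in that clone at the median of its 808 tested genes, and its part in the Fosb difference was not tested.

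Of the Jun family, which supplies the obligate partner of the Fos proteins, Jund moved most. Jund (ENSMUSG00000071076, chr8:70697739-70700616), usually the most steadily expressed Jun gene, was at 8514 and 8484 normalised reads in the unedited line's cultures and at 8499 and 9649 for clone 1. It was at 9876 and 11899.8 for clone 2, 11185 and 12973 for clone 3, and 13257 and 15293 for clone 4. Clones 2, 3 and 4 lay above the parental cultures with no overlap, and clone 1 overlapped them. Jund rose by 0.49 in clone 3 (SE 0.13, adjusted p = 0.0138, limma) and by 0.73 in clone 4 (SE 0.13, adjusted p = 0.00199, limma). Chromosome 8, which also carries Junb, was shifted by 0.04 to 0.08 in the 4 clones.

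Jun (ENSMUSG00000052684, chr4:95049036-95052222), the prototype AP-1 subunit and a substrate of JNK, had the narrowest range of line means among the 8 tested members (0.35). It was at 4811 and 4887 normalised reads in the unedited line's cultures, 4975 and 5674 for clone 1, 4556 and 5111 for clone 2, 5446 and 5431 for clone 3 and 6252 and 6146 for clone 4. Clone 4 stood above the other lines in both cultures. Jun rose there by 0.34 (SE 0.10, adjusted p = 0.0262, limma), and after quantile normalisation the difference was 0.20 and did not pass (adjusted p = 0.124, limma). Junb (ENSMUSG00000052837, chr8:84976909-84978748), a Jun protein that can hold back Jun at some promoters, was at 791 and 834 normalised reads in the unedited line's cultures. It was at 535 and 713 for clone 1, 526 and 731 for clone 2, 916 and 1004 for clone 3 and 492 and 929 for clone 4. Clones 1 and 2 lay below and clone 3 above the parental pair, clone 4 straddled it, and Junb passed the limma test in no clone (differences of -0.32, -0.31, 0.20 and -0.20, each with an SE of 0.22).

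Egr1 (ENSMUSG00000038418, chr18:34861207-34864956), a zinc-finger factor induced through ERK and serum response factor, was at 252 and 224 normalised reads in the unedited line's cultures. It was at 334 and 828 for clone 1, 319.6 and 719.9 for clone 2, 1059 and 975 for clone 3 and 275 and 1010.0 for clone 4. All 8 clone cultures lay above both parental cultures, culture 1 of clones 1, 2 and 4 by little. Egr1 rose by 1.55 in clone 3 (SE 0.43, adjusted p = 0.0167, limma), while the differences of 0.81, 0.71 and 0.84 in clones 1, 2 and 4 (SE 0.43 each) did not pass. Egr3 (ENSMUSG00000033730, chr14:70077317-70082613), a relative of Egr1, was at 10.5 and 7.04 normalised reads in the unedited line's cultures and at 64.8 and 64.7 for clone 3. It was at 2.21 and 40.5 for clone 1, 13.3 and 13.4 for clone 2 and 13.8 and 8.83 for clone 4, all near the floor of the table apart from culture 2 of clone 1. It did not pass the filter, and in the fit with no filter it differed among clones (adjusted p = 0.0261, limma F test).

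Atf3 (ENSMUSG00000026628, chr1:191170296-191183333), a stress-induced factor that pairs with Jun proteins, set the clones apart from each other. It was at 1352 and 1434 normalised reads in the unedited line's cultures, 1267 and 1614 for clone 1, 2772 and 3121 for clone 2, 2271 and 2353 for clone 3 and 1434 and 910.4 for clone 4. Clones 2 and 3 lay above all other libraries, and in clone 4 culture 1 lay at the level of the parental pair and culture 2 below it. Atf3 rose by 0.99 in clone 2 (SE 0.17, adjusted p = 0.00242, limma) and by 0.66 in clone 3 (SE 0.17, adjusted p = 0.0116, limma). The differences were 0.04 in clone 1 and -0.25 in clone 4, neither of which passed. The median over the 605 tested genes of chromosome 1 was shifted by -0.11 in clone 2 and -0.03 in clone 3.

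Whether the knockout clones differed among themselves was asked with an F test over the 4 clones, which does not use the parental cultures as a contrast. Atf3 (adjusted p = 0.00112), Fosl2 (adjusted p = 0.00135) and Jund (adjusted p = 0.0156) differed among clones by the limma F test, 3 of 8 tested members where 44.5% of all tested genes were called. Fosb (adjusted p = 0.063), Jun (0.0831), Fos (0.0874), Junb (0.168) and Egr1 (0.317) did not pass that F test in limma. Without culture 1 of clone 1, or after quantile normalisation, the same test called 2 members, Fosl2 and Atf3 (Jund then had an adjusted p of 0.0537 and 0.0551, limma).

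With the clone as the unit, 4 clone means were compared with the 1 parental mean. No gene of 10803 passed the limma test on these line means at an adjusted p under 0.05, 671 genes (6.21%) had an unadjusted p under 0.05, and edgeR called 0. Egr1 had a mean difference of 0.98 (SD 0.39, n = 4 clones) and was higher in 4 of 4 clones (adjusted p = 0.735, limma). Fosl2 had a mean difference of 1.12 (SD 0.71, n = 4 clones), also higher in 4 of 4 (adjusted p = 0.735, limma). The other 6 tested members had mean differences from -0.21 (Fosb, SD 0.20) to 0.41 (Jund, SD 0.27, and Fos, SD 0.34), with limma adjusted p from 0.744 to 0.868. Egr1 and Fosl2 were also the members whose 8 clone cultures all lay above both parental cultures, a pattern of 10.9% of all tested genes, and no member had all 8 below (12.1% of genes).

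In clones 1, 2 and 4 the 2 cultures differed more in Egr1 than in nearly all other genes. Egr1 was higher in culture 2 than in culture 1 by 0.99 in clone 1, 0.87 in clone 2 and 1.41 in clone 4, larger in size than the culture difference of 99.5%, 99.7% and 99.9% of all tested genes, and in clone 3 the difference was -0.10. The names given in the labels end in 3 for culture 1 and 4 for culture 2 of these 3 clones, but in 4 and 5 for clone 3. By that number Egr1 stood at 275 to 334 in the 3 cultures ending in 3, at 719.9 to 1059 in the 4 ending in 4 and at 975 in the 1 ending in 5. What the number stands for is not said, and its part in the Egr1 call for clone 3 was not tested. Fosl2 was 0.81 higher in culture 2 of clone 1 (99.1% of genes had a smaller difference). Fos did not follow Egr1 in each line: its culture difference was -0.47 in clone 1, -0.59 in clone 2 and 0.71 in clone 4. Junb was higher by 0.73 in culture 2 of clone 4. The 11 ERK feedback genes, which the pathway induces and which restrain it, were higher in culture 2 for 11 of 11 in clone 1 and in clone 2, 6 in clone 3, 10 in clone 4 and 6 in the parental line, with medians of 0.53, 0.25, 0.01, 0.40 and 0.00097. The median over all tested genes lay between -0.015 and 0.013 in each line. Of all tested genes 52.0%, 49.3%, 52.4% and 48.0% were higher in culture 2 in clones 1 to 4 and 45.5% in the parental line. Of the 8 tested members 6, 6, 5 and 5 were higher in culture 2 in clones 1 to 4 and 5 in the parental line. For the 23 tested other immediate early genes these counts were 17, 14, 16 and 18, and 9 in the parental line. The 12 tested heat shock genes were higher in culture 2 for 8, 10, 7 and 2 of 12 in clones 1 to 4 and 7 in the parental line. The part of culture state in the differences from the parental line was not tested.

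Among 15 tested genes of 18 other AP-1 and related bZIP factors, which share the leucine zipper by which these proteins dimerise, the counts higher and lower were 0 and 1, 1 and 1, 5 and 2, and 5 and 3 in clones 1 to 4, and 7 differed among clones by the F test. Of all tested genes 3.5%, 26.1%, 39.8% and 36.5% were called in clones 1 to 4 and 44.5% by the F test, the background for each list here. Maf, a bZIP factor of the large Maf type, fell by 1.05, 1.42, 1.52 and 1.55 in clones 1 to 4 (adjusted p = 0.00363, 9.07e-05, 3.94e-05 and 2.95e-05, limma), from 2557 and 2569 normalised reads in the unedited line's cultures to 683 to 1249 in the clones. The small Maf genes, whose proteins lack an activation domain, went the other way: Mafk rose by 0.68, 1.40 and 0.63 in clones 2 to 4 (adjusted p = 0.0326, 0.000523 and 0.0347, limma), and Mafg by 0.91 and 0.50 in clones 3 and 4 (adjusted p = 0.000488 and 0.0138, limma). Jdp2, a repressor that dimerises with Jun, rose by 0.42 in clone 3 and 0.77 in clone 4 (adjusted p = 0.024 and 0.00122, limma).

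Of 30 other immediate early genes 23 were tested, with 1, 4, 9 and 4 higher and 0, 3, 2 and 4 lower in clones 1 to 4, and 14 differing among clones. Rhob, a small GTPase of endosomes, rose in all 4 clones by 0.50, 0.89, 0.82 and 1.68 (adjusted p = 0.0466, 0.000498, 0.000488 and 5.21e-06, limma). Klf4, a zinc-finger factor, rose by 0.60, 0.85 and 0.56 in clones 2 to 4, and Plk3, a stress-responsive kinase, by 1.38 and 1.41 in clones 3 and 4 (adjusted p = 0.00503 and 0.00511, limma). Its relative Plk2 fell by 0.84, 0.87 and 0.61 in clones 2 to 4, while its difference in clone 1 was 0.57 and did not pass. Of the 11 ERK feedback genes, 0, 1, 3 and 2 were higher and 0, 1, 0 and 0 lower in clones 1 to 4, and 6 differed among clones. Phlda1 rose by 0.82, 0.92 and 1.00 in clones 2 to 4 (adjusted p = 0.000846, 0.000273 and 0.000173, limma). Etv4, an ETS factor downstream of ERK, rose by 2.18 in clone 3 and 1.65 in clone 4, from 2.86 and 7.92 normalised reads in the unedited line's cultures to 365 and 389 for clone 3 and to 68.8 and 493 in the cultures of clone 4.

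The 16 upstream kinases and cofactors, which carry the signal to these genes, had 0, 1, 1 and 2 higher and 0, 1, 0 and 0 lower in clones 1 to 4, and 0 by the F test. Map2k7, a kinase of JNK, rose by 0.44, 0.52 and 0.59 in clones 2 to 4 (adjusted p = 0.0127, 0.00353 and 0.00192, limma), Mrtfa, a coactivator of serum response factor, rose by 0.40 in clone 4, and Elk3 fell by 0.36 in clone 2. Of 20 genes known as AP-1 targets 10 were tested, with 0, 2, 4 and 4 higher, 1, 3, 1 and 2 lower, and 8 differing among clones. Vim, the intermediate filament of mesenchymal cells, fell by 0.83, 0.67 and 2.62 in clones 2 to 4 (adjusted p = 0.017, 0.0298 and 1.3e-05, limma), and Ccnd1, cyclin D1, rose there by 0.78, 1.11 and 1.56. Lif rose in clones 3 and 4 (0.90 and 1.17) and Lmna in clones 2 and 3 (0.82 and 0.91). The tested targets moved in both directions in clones 2 to 4, and the part of the members in this was not tested.

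By likeness of the 5 centred line means (root mean square difference over 10803 genes), the genes nearest Fosl2 were Rin1 (0.17), Igf2bp2 (0.21) and Sipa1l3 (0.21), set against a range of 2.09 for Fosl2 itself. Those nearest Egr1 were Gigyf1 (0.095), Myc (0.11) and Snhg17 (0.11), against a range of 1.55. Those nearest Atf3 were Lmna (0.13), Mbnl3 (0.14) and Lims1 (0.16), against a range of 1.23. The points share the 5 lines and their libraries, so this likeness is a description.

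In the single-cell matrices, cells were put in classes by marker genes that hold none of the 10 members, and a level is the UMIs (counted molecules) of a gene summed over the cells of a class, per 1000000 UMIs of that class (CPM). In the order WT skin, KO skin, WT ocular, then KO ocular, which holds below for each run of 4 values, the matrices kept 11682, 13111, 26168 and 9398 cells, of which 55.2%, 71.0%, 41.2% and 53.0% were melanocytic-gated. The WT ocular matrix stood apart before any result: its header gives Cell Ranger 7.0.0 and 32285 genes, against 8.0.0 and 19059 genes for the other 3. Its cells had a median mitochondrial share of 11.5%, against 0.23% to 1.53%, and 29.1% of its cells passed more than 1 gate and were left out, against 6.51% to 11.5%. It was therefore not set against the other matrices by ratio. Bap1 was at 41.6 CPM in the melanocytic-gated cells of the matrix labelled WT skin and 46.9 in that labelled KO skin, so it was not lower in the skin matrix labelled KO. It was at 33.0 (31.7 to 34.3) in the matrix labelled KO ocular, below WT skin (39.9 to 43.3), and at 5.49 in WT ocular, the matrix set apart. Directions between the matrices rest on their names alone. No full barcode was shared between matrices, and the first 16 bases recurred for 1793 to 2417 barcodes between pairs of the 3 matrices with 24-base barcodes. With 1 matrix of each name no test between conditions was possible, and the 95% intervals given cover counting error only (exact Poisson for levels, exact binomial for shares).

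Cells that passed the neutrophil gate had the highest level of many of these genes, though not in every matrix. A neutrophil is a short-lived granulocyte. S100a8, S100a9 and Retnlg were among the leading genes of its gate in each matrix, but they are markers of that gate, which fixes this. The gate held 853, 247, 251 and 1516 cells with median UMIs of 902, 1180, 1503 and 2066.5, against 5053, 4509, 2679 and 9426 in melanocytic-gated cells. Over 10 genes and 4 matrices the neutrophil-gated class had the highest level in 22 of 40 cases (7, 3, 4 and 8 of 10 genes), and in 18 of these its interval lay clear of the second class (7, 2, 1 and 8). How often this class leads over all genes was not counted, so these counts have no background share and are a description. Melanocytic-gated cells had the lowest level in 9 of 40. The summed level of the 10 genes was 6528, 3984, 1645 and 12829 CPM in neutrophil-gated cells and 857, 1200, 791 and 1275 in melanocytic-gated cells. In neutrophil-gated cells the 14 heat shock genes summed to 1547, 1046, 2899 and 1195. They summed to 2348, 1821, 5106 and 2349 in melanocytic-gated cells, so the neutrophil-gated level was lower in all 4 matrices. This sum weighs genes by their UMIs and the 14 genes were not read singly, so it is not a measure of tissue handling. The 30 other immediate early genes were at 19429, 8490, 3621 and 29614 in neutrophil-gated and 2229, 3107, 1155 and 3056 in melanocytic-gated cells. The part of dissociation in these levels was not tested, and fewer transcripts of other genes per cell raise a CPM in the same way as more transcripts of a member.

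**Figure D3:**
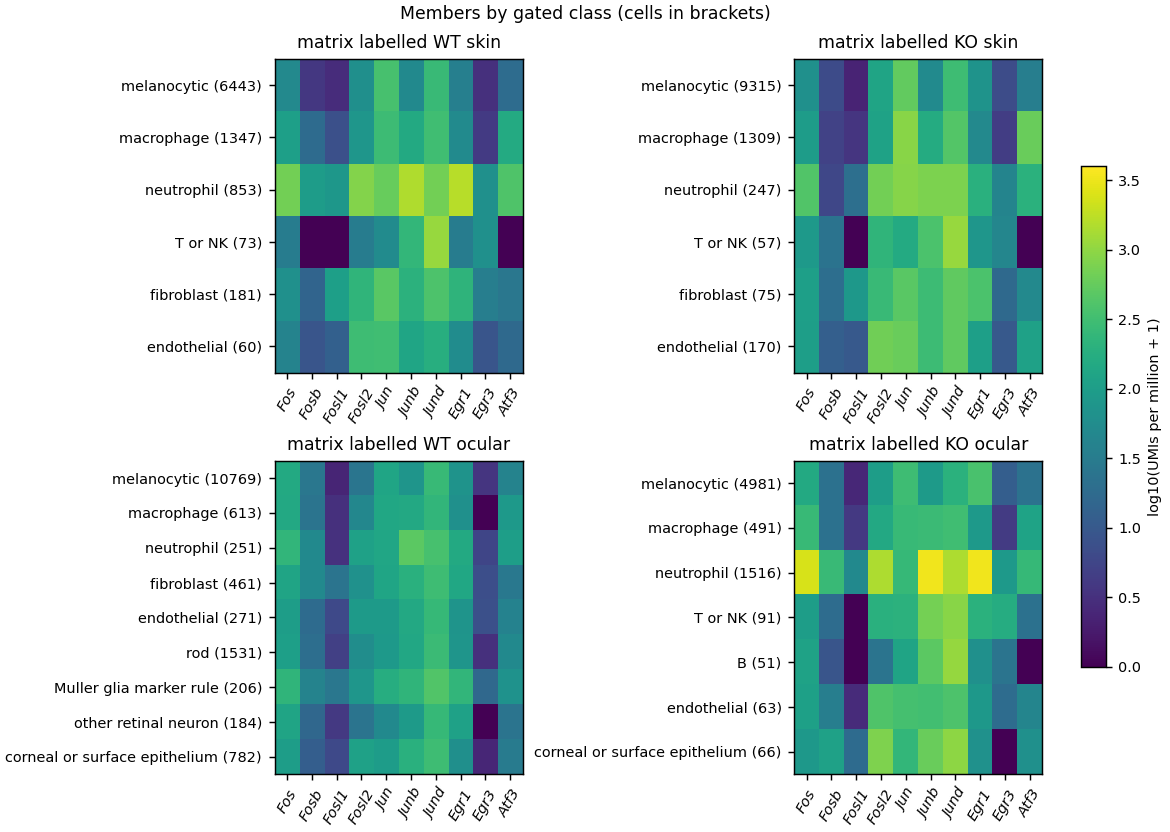
Levels of the 10 members in each gated class of 50 cells or more, by matrix, with the number of cells in brackets. Neutrophil-gated cells hold the highest Fos and Junb levels in all 4 matrices, and Jund is high in T- or NK-gated cells (1094 and 1122 CPM in the skin matrices).

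Fos and Junb were highest in neutrophil-gated cells in all 4 matrices. Junb was at 1458, 783, 491 and 3312 CPM there and at 49.6, 52.3, 75.3 and 90.1 in melanocytic-gated cells, its lowest class in every matrix. The ratio was 29.4 (95% counting interval 27.6 to 31.3), 14.98 (13.3 to 16.8), 6.52 (5.66 to 7.48) and 36.8 (35.7 to 37.8). Thinning each cell to 1000 UMIs left out 507, 98, 36 and 167 shallower neutrophil-gated cells and 489, 245, 616 and 230 melanocytic-gated cells. After it a Junb UMI was seen in 65.0%, 40.3%, 41.9% and 76.1% of neutrophil-gated cells and in 5.24%, 4.34%, 8.32% and 7.26% of melanocytic-gated cells. Without thinning these shares were 66.9%, 53.4%, 52.6% and 84.6% against 26.0%, 23.3%, 25.5% and 42.8%. Fos was at 679.9, 419.7, 231 and 2418 in neutrophil-gated and 48.8, 62.1, 153 and 151 in melanocytic-gated cells, ratios of 13.9 (12.8 to 15.1), 6.75 (5.76 to 7.87), 1.51 (1.23 to 1.83) and 15.99 (15.6 to 16.4). When 4 markers were needed for the gate, Fos in neutrophil-gated cells of KO skin was 203.

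Egr1 in neutrophil-gated cells differed widely between matrices. It was at 1615, 191, 153 and 3299 CPM in neutrophil-gated cells and at 34.9, 68.8, 70.6 and 373 in melanocytic-gated cells. The ratio was 46.3 (43.4 to 49.4) in WT skin, 2.78 (2.20 to 3.48) in KO skin, 2.17 (1.68 to 2.76) in WT ocular and 8.84 (8.65 to 9.02) in KO ocular. Atf3 was at 404, 199, 103 and 254 in neutrophil-gated and 17.6, 33.9, 39.7 and 21.6 in melanocytic-gated cells. Fosl2 was at 860.2, 677, 114 and 1451 against 61.0, 125, 24.3 and 99.8. Jund, the broadly expressed Jun gene, differed less between these classes in each matrix than Junb, Egr1, Atf3 and Fosl2, at 689, 778, 361 and 1431 in neutrophil-gated and 278, 298, 268 and 200.4 in melanocytic-gated cells.

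Jun ran apart from the others. It was at 581, 869, 135 and 258 CPM in neutrophil-gated cells and at 361, 547, 130.2 and 305 in melanocytic-gated cells, ratios of 1.61 (1.49 to 1.74), 1.59 (1.43 to 1.76), 1.04 (0.79 to 1.34) and 0.84 (0.79 to 0.90). So in KO ocular, where Junb, Egr1 and Fos were at their highest in neutrophil-gated cells, Jun was lower there than in melanocytic-gated cells. Of the scarce members, Fosb followed the neutrophil pattern in 2 matrices: it was at 96.6 and 270.3 in neutrophil-gated cells of WT skin and KO ocular, against 2.87 and 20.8 in melanocytic-gated cells. In KO skin Fosb rested on 2 UMIs in neutrophil-gated cells. Fosl1, which encodes Fra-1, was at 80.0, 19.6 and 49.6 in neutrophil-gated cells of WT skin, KO skin and KO ocular and at 1.82, 1.31, 1.35 and 1.48 in melanocytic-gated cells of the 4 matrices. Egr3 was at 63.5, 41.7, 4.57 and 85.6 against 2.16, 5.77, 2.65 and 10.7, and at 31.0 in neutrophil-gated cells of WT skin when 1000 UMIs per cell were required. T- or NK-gated cells had the highest Egr3 level in WT skin (63.7, 6 UMIs), KO skin (44.4, 4 UMIs) and KO ocular (171, 49 UMIs). Only in KO ocular did the interval lie clear of the neutrophil-gated level.

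**Figure D4:**
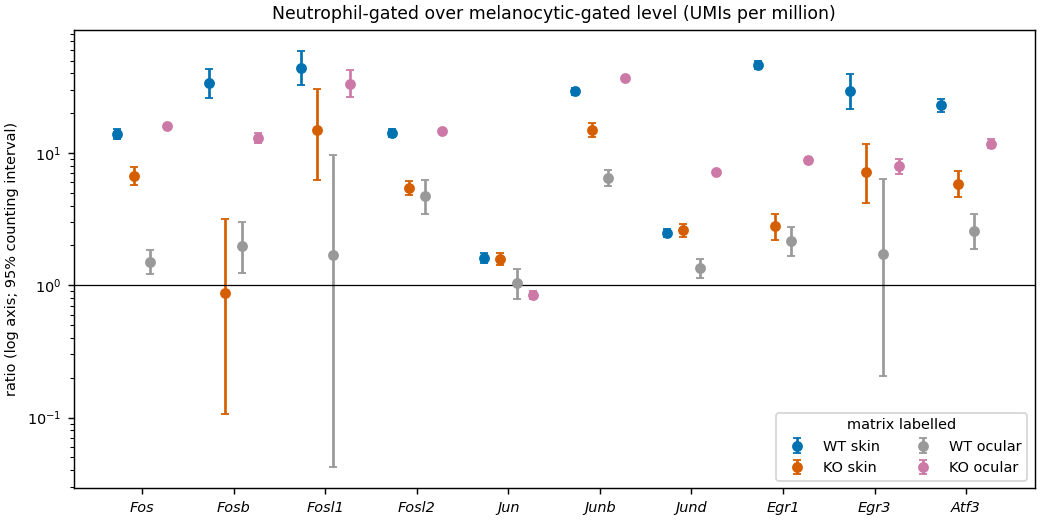
Ratio of the level in neutrophil-gated cells to that in melanocytic-gated cells for each member and matrix, on a log axis, with 95% counting intervals. Junb lies between 6.52 and 36.8, whereas Jun lies between 0.84 and 1.61.

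Melanocytic markers were present in the neutrophil-gated cells at a median of 9.16%, 8.08%, 29.1% and 3.85% of their level in melanocytic-gated cells. In neutrophil-gated cells their median was 4785, 3055, 2800 and 1858 CPM, so by level WT ocular lay below both skin matrices. Its large share rests on a low level in its melanocytic-gated cells, 9627 CPM against 37799 to 52254 in the other matrices. The matrix with the largest such share, WT ocular, also had the smallest neutrophil to melanocytic ratio for Fos (1.51), Fosl2 (4.71), Junb (6.52), Jund (1.35), Egr1 (2.17) and Atf3 (2.59). For Jun the smallest ratio was in KO ocular (0.84), the matrix with the smallest such share, and for Fosb it was in KO skin (0.88, on 2 UMIs). The part of such carried-over RNA in these ratios was not tested.

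Other classes led for some members. Macrophage-gated cells, tissue phagocytes marked by C1q genes, held Atf3 at 159, 601, 88.5 and 123 CPM, and Jun at 292, 898, 140.0 and 265. In KO skin they had the highest Atf3 level of any class, and their Jun level was close to the 869 of neutrophil-gated cells. T- or NK-gated cells had the highest Jund level of the skin matrices (1094 in WT skin from 103 UMIs, 1122 in KO skin from 101 UMIs). They held no Atf3 UMI in 73 cells of WT skin and 57 of KO skin, which allows a share of cells with a UMI of up to 4.11% and 5.26%. In KO ocular the B-gated cells, at 1081, and the T- or NK-gated cells, at 901, had Jund above melanocytic-gated cells (200.4) and below neutrophil-gated cells (1431). Fibroblast-gated cells had Fosl1 at 106 in WT skin, 83.0 in KO skin and 23.4 in WT ocular, its highest level in the skin matrices, and Egr1 at 221, 383 and 138. Egr1 in the 75 fibroblast-gated cells of KO skin was 672 after thinning, over the cells deep enough for it. Endothelial-gated cells held Fosl2 at 299, 657, 91.1 and 403.5, second to neutrophil-gated cells in both skin matrices. The KO skin endothelial gate also had platelet genes (Ppbp and Tubb1) among its leading genes. The 66 cells of the corneal or surface epithelium gate in KO ocular had Fosl2 at 809, Jund at 982, Junb at 602 and Fosb at 114. In WT ocular a class that met the Muller glia marker rule was led by Lcn2, Grem1, Acta2 and Tagln, genes not typical of that glia, and it is named only by its rule. It had the highest Egr1 level of that matrix (235, or 126 when 4 markers were needed) and Fos at 228, close to the 231 of neutrophil-gated cells. The rod gate of the same matrix had 4 haemoglobin genes among its leading genes.

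**Figure D5:**
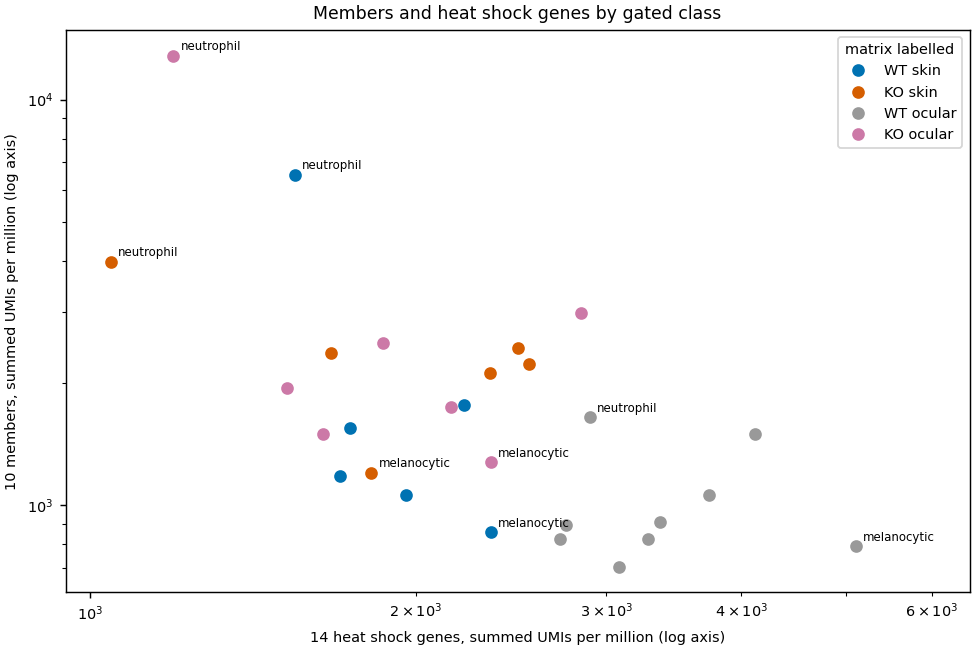
Summed level of the 10 members against the summed level of 14 heat shock genes in each gated class, both in CPM (UMIs of the list scaled to the class total) on log axes, coloured by matrix. Neutrophil-gated cells lie highest in each matrix (1645 to 12829 for the members) and to the left of melanocytic-gated cells (1046 to 2899 against 1821 to 5106 for heat shock genes).

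Between the matrices labelled KO skin and WT skin, which share a Cell Ranger version and gene set, melanocytic-gated cells had more Fosl2, Egr1, Atf3 and Jun in KO skin. The ratio of KO skin to WT skin was 2.05 for Fosl2 (1.97 to 2.13), 1.97 for Egr1 (1.87 to 2.08), 1.93 for Atf3 (1.79 to 2.07), 1.52 for Jun (1.49 to 1.54) and 1.27 for Fos (1.22 to 1.34), and near 1 for Junb (1.05, 1.00 to 1.11) and Jund (1.07). Of the scarce members Egr3 (2.67, 2.18 to 3.29) and Fosb (1.96, 1.63 to 2.36) were also higher in KO skin, and Fosl1 was lower (0.72, 0.54 to 0.96). Summed heat shock genes went the other way in these cells, 1821 in KO skin and 2348 in WT skin. By the share of melanocytic-gated cells with a UMI after thinning, Fos was not higher in KO skin (4.69%, against 4.85% in WT skin). The shares for Jund (18.3% against 22.9%) and Junb (4.34% against 5.24%) were lower there. Those for Fosl2 (12.1% against 6.48%), Egr1 (4.79% against 3.14%) and Atf3 (2.89% against 1.90%) were higher, as was that for Jun. In macrophage-gated cells Atf3 was 3.79 times (3.57 to 4.03) and Jun 3.08 times (2.94 to 3.22) the WT skin level, while Fos (0.93, 0.84 to 1.03) and Egr1 (0.93, 0.80 to 1.08) lay within counting error of 1, and Fosb (0.24, 0.15 to 0.36) and Fosl1 (0.39, 0.21 to 0.68) were lower. Neutrophil-gated cells ran the opposite way for most members: the ratio was 0.119 for Egr1 (0.0933 to 0.149), 0.54 for Junb (0.47 to 0.61), 0.62 for Fos (0.52 to 0.73) and 0.49 for Atf3 (0.38 to 0.63), and 1.49 for Jun (1.31 to 1.70). The leading genes of this gate also differed: Lcn2, Mmp9, Ngp and Hp were among them in KO skin but not WT skin. Acod1, Cxcl2, Ccl4 and G0s2 were among them in WT skin but not KO skin. The part of such a difference between the gated cells in the ratios was not tested. These ratios compare 1 matrix with 1 other, and genotype, tumour and handling cannot be told apart.

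Between KO ocular and KO skin, 2 matrices labelled knockout at different sites, Egr1 and Fos were higher in KO ocular in melanocytic-, macrophage- and neutrophil-gated cells. In melanocytic-gated cells the ratio was 5.43 for Egr1 (5.27 to 5.60), 2.43 for Fos (2.35 to 2.52) and 1.72 for Junb (1.66 to 1.79), but 0.56 for Jun (0.55 to 0.57), 0.64 for Atf3 (0.60 to 0.68) and 0.80 for Fosl2 (0.78 to 0.82). After thinning, an Egr1 UMI was seen in 20.2% of melanocytic-gated cells of KO ocular and 4.79% of those of KO skin (51.1% and 16.6% without thinning). In macrophage-gated cells the ratio was 2.70 for Fos (2.47 to 2.96) and 1.80 for Egr1 (1.57 to 2.07), with 0.204 for Atf3 (0.190 to 0.219) and 0.29 for Jun (0.28 to 0.31). In neutrophil-gated cells it was 17.2 for Egr1 (13.8 to 21.8), 5.76 for Fos (4.95 to 6.74) and 4.23 for Junb (3.78 to 4.74), with 0.30 for Jun (0.26 to 0.34). Here too the leading genes of the gate differed, with Cxcl2, Acod1 and G0s2 among them in KO ocular and Lcn2, Mmp9, Ngp and Hp in KO skin. In endothelial-gated cells the intervals for Egr1 (0.75, 0.49 to 1.15), Fos (1.06, 0.71 to 1.58) and Junb (1.09, 0.87 to 1.38) included 1, and Jun was again lower (0.57, 0.47 to 0.69). So Jun was lower in KO ocular in all 4 classes, while Fos and Egr1 were higher in 3 of them. The 30 other immediate early genes summed to 3056 and 3107 CPM in melanocytic-gated cells of KO ocular and KO skin. They summed to 5380 and 4336 in macrophage-gated, 29614 and 8490 in neutrophil-gated and 7779 and 7430 in endothelial-gated cells. In the same order of classes, the 18 other AP-1 and related bZIP factors summed to 1139 and 1704, 1852 and 2685, 3087 and 2236, and 1080 and 2351. Summed heat shock genes were at 2349 and 1821 in melanocytic-gated cells of KO ocular and KO skin, 1642 and 1671 in macrophage-gated and 1195 and 1046 in neutrophil-gated cells, and the part of handling in these differences was not tested.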

How the data were processed

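Bulk RNA-seq covered 10 libraries of 5 Melan-a lines, from polyadenylated RNA with a stranded kit, per the labels' protocols. The deposited values are log2-like variance-stabilised expression values of 13202 genes; for the authors' aligner and counter the sources used here name none. GRCm38 and mm10 are named, per the submitters' processing notes. The stabilisation could be inverted, and 100% of the deposited values came out as whole reads within 0.01 after scaling to depth, so edgeR and DESeq2 were run on those reads as alternatives. The main test was limma with a mean-variance trend on the deposited values, with genes kept where their mean lay at least 1 above the lowest value, two-sided and adjusted by Benjamini-Hochberg at 0.05.

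The single-cell files hold deposited UMI counts per gene and cell made with Cell Ranger 7.0.0 (WT ocular) or 8.0.0, per the file headers. The labels' protocols name a fixed-tissue workflow for the sample that holds all matrices. Whether it applied to WT ocular, which differed from the others in gene set and mitochondrial share, could not be told here. Cells needed 500 UMIs, 200 genes and at most 20% mitochondrial UMIs. A class needed 3 of its markers and a marker share of at least 2 times the matrix mean (0.5 times for melanocytic cells). Cells passing more than 1 gate were left out as possible doublets, no doublet caller was run, and classes needed 50 cells. Free RNA was not removed. A count of 0 allows up to 3 UMIs.

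Groups came from the sample labels, and no per-sample column lay outside them. All 10 members were named, with class values in the text for those the results turn on and the rest plotted. Of each other list up to 4 genes were named, those called in the most clones with ties broken by the mean size of the difference. The members and the lists were chosen with earlier results of these data known. Alternatives were quantile normalisation, no or a stricter filter, no trend, edgeR, DESeq2, a replicate block, each culture left out, and for cells thinning, another UMI minimum, 4 markers, no cells of the top 5% by UMIs, and a denominator of shared genes. The limma and edgeR clone comparisons and the thinning of cells were tested on simulated data, and the other steps were not. R 4.3.3, limma 3.58.1, edgeR 4.0.16, DESeq2 1.42.0, Python 3.11.15, numpy 2.4.6, scipy 1.17.1 and pandas 2.3.3 were used.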

Additional observations from a re-analysis of the deposited data

Results flagged for a closer look

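Egr1 and Egr3 each had 1 clone mean far from the other 3. For Egr1 the gap from clone 3 to the nearest other clone was 0.844 of the range over the 4 clone means, and for Egr3 it was 0.878 with clone 3 again the highest. Culture 2 of clones 1, 2 and 4 was at 828, 719.9 and 1010.0 normalised reads of Egr1, beside 1059 and 975 in clone 3, and Egr1 did not pass the F test among clones (limma adjusted p = 0.317). Chance flags about 1 in 20 groups in this way.

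The difference from the parental line was not the same in the 4 clones for Atf3, Fosl2 and Jund. By limma, an F test over the clones gave adjusted p = 0.00112 for Atf3, with differences of 0.04, 0.99, 0.66 and -0.25 in clones 1 to 4. It gave adjusted p = 0.00135 for Fosl2, with differences of 0.45, 1.12, 2.09 and 0.81. It gave adjusted p = 0.0156 for Jund, with differences of 0.09, 0.34, 0.49 and 0.73, from 2 cultures of each clone.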

How the results depend on the processing

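Of 659 member-level alternatives, 602 kept their direction and side of the threshold, 29 lost a call, 15 gained one and 13 reversed, all 13 in differences that had not passed the test. With each culture left out in turn, members called numbered 0 to 1 in clone 1, 2 to 4 in clone 2, 1 to 5 in clone 3, 1 to 5 in clone 4, 2 to 5 in the F test and 0 to 0 with the clone as the unit. DESeq2 called 6 members in the F test (adding Fos, Fosb and Jun). In clone 4, without culture 1 Jund, Fos and Egr1 were higher and Atf3 lower, and without culture 2 Jun and Jund were higher and Junb lower. The reversed differences were Fos in clone 2 (0.11 with quantile normalisation, 0.013 with edgeR, 0.0088 with DESeq2, 0.02 without parental culture 2, -0.30 to 0.29 without a culture of clone 2), Jun in clone 2 (0.004 without parental culture 2, -0.086 to 0.073 without a culture of clone 2), Fosb in clone 3 (0.094, quantile), Fosb in clone 2 (-0.45 to 0.00021 without a culture of clone 2), Junb in clone 4 (-0.57 to 0.16 without either of its cultures), Atf3 in clone 1 (-0.0024 without parental culture 1, -0.12 to 0.19 without either of its cultures) and Atf3 in clone 4 (-0.53 to 0.038 without either of its cultures). The cause was not tested.

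Over all genes, clone 1 calls (378 in limma) were 716 with DESeq2, 214 with the stricter filter, and 57 to 639 with a culture left out. Those of clone 2 (2822) were 1088 to 3488, of clone 3 (4304) 2282 to 4986, of clone 4 (3941) 1925 to 4316 and of the F test (4806) 2954 to 5394 with a culture left out.

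Same-numbered cultures deviated together in some lines only (correlations of -0.13 to 0.73), so the numbers were not taken as a pairing. The names in the labels number the cultures 4 and 5 in clone 3 and 3 and 4 in the other clones, so the block joins other numbers there. With the replicate block, members called numbered 0, 3, 5 and 5 in clones 1 to 4 and 4 in the F test, and clone 1 called 616 genes. The calls gained were Jund in clone 2 (0.34, adjusted p = 0.0278), Egr1 in clone 4 (0.84, adjusted p = 0.0466) and Junb in the F test (adjusted p = 0.0315), by limma.

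Fos in melanocytic-gated cells was 54.9 in WT skin, 58.7 in KO skin, 146 in WT ocular and 165 in KO ocular after thinning, 225 (WT ocular) and 154 (KO ocular) over shared genes, an alternative chosen after seeing the data, and 58.9 (KO skin) and 166 (KO ocular) without the cells of most UMIs. Neutrophil-gated cells led in 20 to 25 of 40 cases over these alternatives. Fosb, Fosl1 and Egr3 rest on few UMIs in several classes.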
